A study of Mus musculus with 21 samples.

Results

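Sciatic nerves of 4-day-old mice carrying a Pmp22 transgene (TG) were compared with sciatic nerves of wild-type mice (WT) of the same age. The comparison sets 3 TG arrays against 3 WT arrays, 6 of the 21 of the series, chosen by the genotype and age in their titles. Each array was hybridised with total RNA pooled from the nerves of 4 to 7 mice. The TG mice are described only as transgenic for Pmp22, with no word on the construct, its promoter, the line or its copy number. The WT mice were of mixed background, and nothing states that TG and WT mice were littermates. Nerves of mice homozygous for a null Pmp22 allele (KO) and of mice carrying the Trembler mutation (TR) gave 3 pools each at postnatal day 4 (P4). At postnatal day 60 (P60) there were 2 TG, 3 WT, 2 KO and 2 TR pools. The P4 KO and TR pools and the P60 TG and WT pools show where the TG nerve at P4 differed from them. All 21 arrays entered the fit, so every group also contributes to the residual spread behind the p-values for TG against WT. The values are dChip expression indices, in array units, for 12422 probe sets, of which 10994 were above a floor of 54.7 on at least 2 arrays and were tested.

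Pmp22 encodes a small membrane protein with 4 transmembrane segments that is found in the compact myelin of peripheral nerve, and both an extra copy and a loss of the human gene cause hereditary neuropathy. Schwann cells wrap peripheral axons in myelin during the first weeks after birth in the mouse, and the growing sheath needs large amounts of cholesterol, fatty acids and galactolipids as well as myelin proteins. Most of the cholesterol is made in the Schwann cell itself from acetyl-CoA by way of mevalonate, squalene and lanosterol, and the genes of that route are switched on together by the sterol-sensing transcription factor SREBP2.

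The 12 arrays at P4 had median indices between 181 and 198, with between 79.2% and 80.8% of probe sets above the floor. TG pools 1 and 2 were scanned on the same day and correlated with each other at r = 0.984 across tested probe sets. TG pool 3 was scanned on another day, stood apart, and correlated less with TG pools 1 and 2 (r = 0.957 and 0.947) than with WT pool 2 (r = 0.962). TG pool 3 was the TG pool nearest to WT in 34 of 52 probe sets that passed the test and were lower in TG. Values without it are given beside some of the results below. Leaving out the TG pool nearest to WT tends to enlarge a change, so these values add no separate support. No TG and WT pool at P4 shared a scan day, and scan day and genotype cannot be told apart from arrays of these 2 groups alone. Of 11 Schwann cell markers, 7 had a probe set with a single gene symbol, and all 7 were above the floor in all 6 pools by their brightest probe set. They include Mbp, which encodes a major myelin protein, Erbb3, a neuregulin receptor, and the transcription factors Sox10 and Egr2.

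Pmp22 itself did not pass the test. Its bright probe set read 6676, 6606 and 6803 in TG pools, against 6839.9, 7682 and 7093 in WT pools. The 3 TG pools lay just below all 3 WT pools, and the log2 change was -0.10 ± 0.11 (SE from the limma fit, n = 3 pools each, adjusted p = 0.997). A dim Pmp22 probe set read 61.4, 80.9 and 122 in TG pools and 97.4, 106 and 104 in WT pools, with a log2 change of -0.27 ± 0.20 (adjusted p = 0.966). Which part of the transcript these probes cover, and whether they would detect RNA from the transgene, is not stated in the sources used here. The Pmp22 readings therefore do not check the TG label. In KO pools, which carry the null allele, the bright probe set still read 4839, 5424 and 5129.

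At an adjusted p under 0.05 in limma, 61 of the 10994 probe sets (0.555%) differed between TG and WT nerves. Of these, 52 (0.473%) were lower and 9 (0.0819%) were higher in TG nerves, and TG and WT pools did not overlap in any of the 61. A single gene symbol was attached to 54 of the 61, which represented 48 genes, 40 lower and 8 higher, and 34 of the lower genes fell by more than 1 log2 unit. The median change over all tested probe sets was 0.01 log2 units. All changes are TG minus WT differences of log2 indices, and errors are standard errors from the fit. In bulk nerve RNA, fewer cells of a type and less RNA per cell cannot be told apart. Nothing in the labels says that the pools were bred or collected separately. The p-values and standard errors cover only the spread among pools within groups, taken over all 8 groups of the fit and not from TG and WT pools alone.

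The calls depend on the other arrays in the fit and on scan day. Fitted on the 6 TG and WT arrays alone, with 4 residual degrees of freedom, limma called 0 probe sets, with 846 at an unadjusted p under 0.05, against 739 (6.72%) with all 21 arrays. With scan day as a fixed block, which links TG to WT only through arrays of other groups, all 61 kept their sign but none passed. Under that block Idi1 and Hmgcs1 had changes of -2.29 and -2.39, while Cyp51, Gdf5 and Fut8 had changes of -0.74, -1.29 and -0.79. Leaving out each of the 6 pools in turn gave between 25 and 74 called probe sets, 25 without TG pool 1 or 2, 74 without TG pool 3, and 34, 51 and 37 without WT pools 1, 2 and 3. Of the 54 named probe sets, 15 passed in all 6 of these fits, those of Gdf5, Cyp51, Idi1, Hmgcs1, Msmo1, Ugt8a, Mme, Slc6a15, Kcnk1 and Fut8, both of Scd1, the brighter 2 of Nsdhl and the brighter one of Elovl6. Without TG pool 3, 46 of the 54 still passed. The calls for Cd24a, Utrn, Sowahc, Tlcd4, Cpeb2, Rnf13, Mea1 and Ddit4 were lost (limma, adjusted p between 0.0668 and 0.144).

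Many of the genes that fell make cholesterol. Of 21 genes of the route from acetyl-CoA to cholesterol, 17 were tested, and by the brightest probe set of each 9 fell and 0 rose, against 0.441% of all 7703 tested genes that fell and 0.0909% that rose. Counting dimmer probe sets adds Fdps and Mvk, for 11 genes with at least 1 probe set that fell. All 17 log2 changes were below 0, against 48.7% of all genes, and in 12 of 17 every TG pool was below every WT pool, against 5.69% of all genes. The list's median change was -1.15 log2 units, against 0.01 over all genes. Against the WT mean, the list's median was -1.44, -1.24 and -0.73 log2 units in TG pools 1, 2 and 3, and 0.06, -0.08 and 0.04 in WT pools 1, 2 and 3. TG pool 3 was thus the least shifted of the TG pools and still well below every WT pool. Without it the list's median was -1.36 and 11 of 17 genes fell by their brightest probe set.

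The route opens with the synthesis of mevalonate. Hmgcs1, the synthase that makes HMG-CoA, read 723, 801 and 1846 in TG pools, against 3604, 3466 and 3689.9 in WT pools. All TG pools were below all WT pools, TG pool 3 by the least, and Hmgcs1 fell by 1.81 ± 0.25 log2 units (adjusted p = 0.00154). Mvk, mevalonate kinase, read 101, 102 and 218 in TG pools and 287, 304 and 493 in WT pools on the probe set that fell by 1.42 ± 0.29 (adjusted p = 0.0307). Its other probe set, which is the brighter over all arrays, did not pass, with a change of -0.25 ± 0.21. Mvd, mevalonate diphosphate decarboxylase, read 255, 218 and 314 in TG pools and 446, 434 and 411 in WT pools, a change of -0.73 that did not pass (adjusted p = 0.217). The groups did not overlap for Mvd either.

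Idi1, the isomerase that supplies the reactive 5-carbon unit, had the smallest adjusted p of all probe sets in the comparison. It read 709, 866 and 1238 in TG pools, against 3891, 3553 and 3741 in WT pools. TG and WT pools were far apart, and Idi1 fell by 2.03 ± 0.18 log2 units (adjusted p = 2.44e-05). Fdps, farnesyl diphosphate synthase, read 190.2, 197 and 668 in TG pools and 1246, 1517 and 1455 in WT pools by the probe set that fell by 2.26 ± 0.38 (adjusted p = 0.00685). A brighter Fdps probe set had a change of -1.98 and missed the threshold (adjusted p = 0.106), with TG pool 3 at 1744 and TG pools 1 and 2 at 419 and 517. The remaining one, near the floor, had a change of 0.19. Without TG pool 3 the brighter probe set fell by 2.62 (limma, adjusted p = 0.00707). It passed in only that 1 of the 6 fits that each left out 1 pool, and its adjusted p reached 0.522 in another.

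At the squalene steps, Fdft1, squalene synthase, read 466, 496 and 948 in TG pools and 1176, 1059 and 1286 in WT pools. Its change of -0.96 ± 0.22 just missed the threshold (limma, adjusted p = 0.0651). Fdft1 fell by 1.28 without TG pool 3 (adjusted p = 0.00108), but passed without no other pool, with an adjusted p of up to 0.399. Sqle, squalene epoxidase and a rate-limiting enzyme, read 697, 700.2 and 895 in TG pools, against 1399, 1664 and 1812 in WT pools. The groups did not overlap, and Sqle fell by 1.09 ± 0.19 (adjusted p = 0.00991). Lss, lanosterol synthase, fell by 1.20 ± 0.19 (adjusted p = 0.00578), with 208, 234 and 304 in TG pools and 797, 512 and 443 in WT pools.

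After lanosterol, most of the measured enzymes fell. Cyp51, the lanosterol 14-alpha-demethylase, read 305, 334 and 315 in TG pools, against 1967, 921 and 1344 in WT pools. The 3 TG pools were nearly equal while the WT pools spread widely, and Cyp51 fell by 2.08 ± 0.28 (adjusted p = 0.00123). Msmo1, the C4-methylsterol oxidase, read 935, 1135 and 1599 in TG pools and 2547, 2750.2 and 2655 in WT pools and fell by 1.15 ± 0.18 (adjusted p = 0.00488). Nsdhl, which acts with Msmo1 in removing the C4 methyl groups, fell on all 3 of its probe sets. One fell by 2.22, one fell by 1.97 and one fell by 1.93. Its middle one in brightness read 129, 126 and 232 in TG pools, against 652, 527 and 601 in WT pools. Hsd17b7, the keto-reductase of the same steps, read 66.6, 67.2 and 163 in TG pools and 508, 302 and 285 in WT pools and fell by 1.97 ± 0.37 (adjusted p = 0.0175).

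Sc5d, the sterol C5-desaturase, read 38.9, 56.0 and 60.2 in TG pools and 196, 98.0 and 251 in WT pools by its brighter probe set, which fell by 1.57 ± 0.29 (adjusted p = 0.014). All TG pools were below all WT pools, and since TG pool 1 was under the floor the change is a lower estimate of the difference. The remaining 4 members did not pass: Ebp had a change of -0.59 with overlapping pools, Tm7sf2 changes of -0.22 and -0.38 on its 2 probe sets, Lbr one of -0.15 and Dhcr7 one of -0.12. Dhcr7 was at the floor or near it in all 6 pools. Summed over the 17 genes, the indices came to 6511, 7318 and 11327 in TG pools, against 21863, 20441 and 21751 in WT pools.

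**Figure D1:**
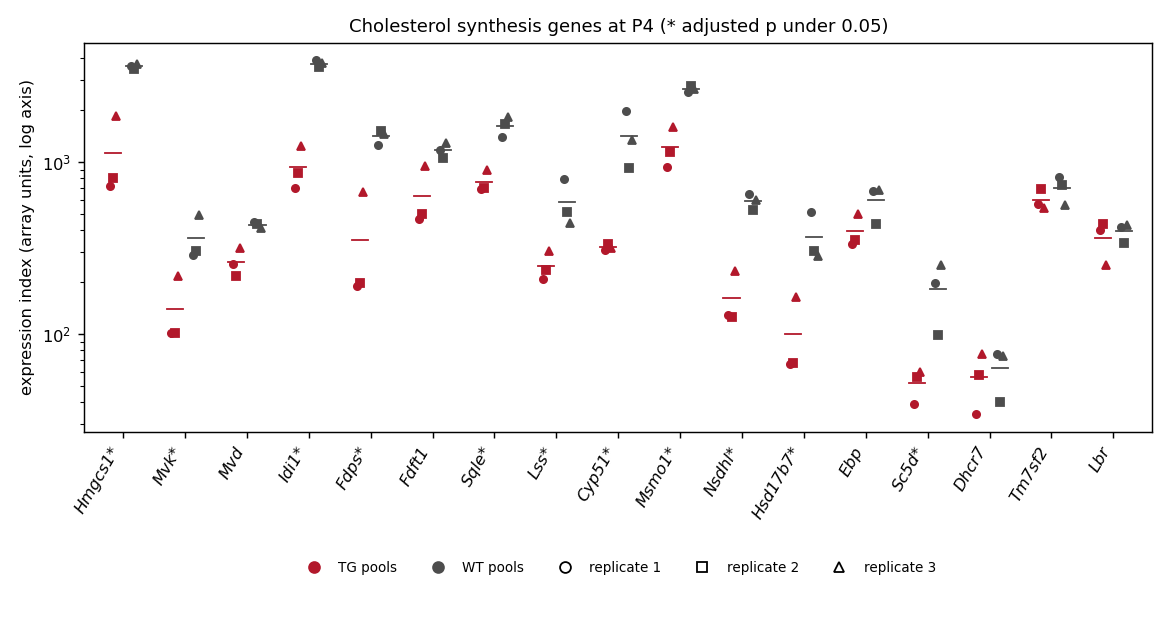
Expression index in each P4 pool (points, log axis) for the tested genes of cholesterol synthesis, by the probe set with the smallest p, TG pools left of WT pools for each gene and a horizontal line at each group's mean. Idi1, Hmgcs1, Cyp51 and Nsdhl show wide gaps between TG and WT pools, and TG pool 3 is often the highest TG pool.

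Promoter windows were read for the 6 cholesterol genes with the largest falls that have a row in the RefSeq table for GRCm38.p6, because these genes moved together. Each window runs from 250 bases before to 50 bases after an annotated start of transcription, 5′ to 3′ on the strand of the gene. The windows were chr13:119690101-119690400 (plus strand) for Hmgcs1, chr13:8885356-8885655 (plus strand) for Idi1, chr5:4104648-4104947 (minus strand) for Cyp51, chrX:72918271-72918570 (plus strand) for Nsdhl, chr1:169969156-169969455 (minus strand) for Hsd17b7 and chr9:42264251-42264550 (minus strand) for Sc5d. Capitals mark the CCAAT box, read as CCAAT or its reverse complement ATTGG, and the sterol regulatory element TCACNCCAC on either strand.
Hmgcs1: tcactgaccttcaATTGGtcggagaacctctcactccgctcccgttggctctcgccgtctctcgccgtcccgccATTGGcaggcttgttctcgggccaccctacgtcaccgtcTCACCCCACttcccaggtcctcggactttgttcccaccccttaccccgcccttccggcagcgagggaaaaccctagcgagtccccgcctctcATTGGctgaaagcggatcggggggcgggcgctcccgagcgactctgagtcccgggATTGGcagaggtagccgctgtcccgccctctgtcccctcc
Idi1: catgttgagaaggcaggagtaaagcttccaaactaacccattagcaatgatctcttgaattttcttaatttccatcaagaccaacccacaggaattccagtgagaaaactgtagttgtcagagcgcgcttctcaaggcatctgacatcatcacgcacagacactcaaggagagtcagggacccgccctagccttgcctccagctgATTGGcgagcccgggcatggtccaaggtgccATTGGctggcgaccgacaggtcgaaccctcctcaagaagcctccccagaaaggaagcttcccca
Cyp51: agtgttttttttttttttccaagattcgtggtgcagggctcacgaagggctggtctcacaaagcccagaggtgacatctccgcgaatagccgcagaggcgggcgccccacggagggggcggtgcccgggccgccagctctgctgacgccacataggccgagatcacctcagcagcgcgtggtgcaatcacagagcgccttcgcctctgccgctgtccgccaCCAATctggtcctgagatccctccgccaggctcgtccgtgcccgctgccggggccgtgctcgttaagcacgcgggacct
Nsdhl: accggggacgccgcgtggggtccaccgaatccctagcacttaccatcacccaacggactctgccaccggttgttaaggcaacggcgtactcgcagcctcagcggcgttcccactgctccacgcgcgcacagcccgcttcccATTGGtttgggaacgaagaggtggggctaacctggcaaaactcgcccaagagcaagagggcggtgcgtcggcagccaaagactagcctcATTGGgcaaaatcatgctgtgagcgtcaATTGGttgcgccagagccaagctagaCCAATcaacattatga
Hsd17b7: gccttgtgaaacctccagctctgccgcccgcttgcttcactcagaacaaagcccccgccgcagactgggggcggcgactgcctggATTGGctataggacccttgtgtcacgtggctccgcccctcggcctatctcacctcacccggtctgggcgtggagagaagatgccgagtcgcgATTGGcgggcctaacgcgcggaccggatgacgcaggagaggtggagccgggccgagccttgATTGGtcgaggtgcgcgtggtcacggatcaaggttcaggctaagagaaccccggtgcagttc
Sc5d: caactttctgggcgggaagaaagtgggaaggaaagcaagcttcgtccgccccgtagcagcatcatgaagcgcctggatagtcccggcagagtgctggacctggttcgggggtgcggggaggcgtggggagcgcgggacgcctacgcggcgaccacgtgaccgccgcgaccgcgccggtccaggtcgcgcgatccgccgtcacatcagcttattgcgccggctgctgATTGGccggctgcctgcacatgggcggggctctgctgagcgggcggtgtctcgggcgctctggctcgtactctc
All 6 windows hold at least 1 CCAAT box. Over the whole table, 37.41% of 32851 windows hold a CCAAT box and 1.24% hold TCACNCCAC. By gene, 41.06% of 27025 had at least 1 window with a CCAAT box. In the cholesterol list, 14 genes had a row, with 16 windows, and 14 of the 16 windows (87.5%), at least 1 for each gene, held a CCAAT box. Only Hmgcs1 among the 14 held TCACNCCAC, as TCACCCCAC starting 137 bases before the start of transcription. These are matches of letters in short windows and were not tested for binding or function.

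Fatty acid and phospholipid synthesis, which supplies the other bulk lipids of the sheath, showed 2 genes that fell and 0 that rose among 17 tested of 23, against 0.441% and 0.0909% of all genes. Its median change was -0.46 log2 units. In 10 of the 17 every TG pool was below every WT pool, against 5.69% of all genes, and in 2 every TG pool was above every WT pool, against 6.67% of all genes. Scd1, the stearoyl-CoA desaturase, read 1835, 1485 and 1889 in TG pools, against 4711, 4971 and 4555 in WT pools. The pools within each group were close together, and Scd1 fell by 1.46 ± 0.13 on this probe set (adjusted p = 2.50e-05) and by 1.94 ± 0.23 on another (adjusted p = 0.000523). A dim Scd1 probe set had a change of -0.44 and did not pass. Elovl6, which lengthens palmitate to stearate, read 1116, 1020.4 and 1453 in TG pools and 2780.2, 2729.6 and 3174 in WT pools and fell by 1.29 ± 0.18 (adjusted p = 0.0013), and its second probe set fell by 1.56 ± 0.27 (adjusted p = 0.0091).

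Further members of the list had non-overlapping pools but missed the threshold. Fasn, fatty acid synthase, read 843, 774 and 1180.1 in TG pools and 1555, 1801 and 1894 in WT pools, a change of -0.93 (adjusted p = 0.0581). Pcyt2, of phosphatidylethanolamine synthesis, had a change of -1.34 (adjusted p = 0.0592), and Fads1, a fatty acid desaturase, one of -1.01 (adjusted p = 0.0849). Without TG pool 3, Fasn fell by 1.11 (limma, adjusted p = 0.0208) and Pcyt2 fell by 1.66 (adjusted p = 0.0121). Neither passed when any other of the 6 pools was left out, with adjusted p of up to 0.308 and 0.327. Scd2, another stearoyl-CoA desaturase, read 6726, 6466 and 5249 in TG pools and 8247, 8717 and 8277 in WT pools, a change of -0.46 that did not pass (adjusted p = 0.179).

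Of 17 tested genes of sphingolipid and myelin lipid metabolism, only Ugt8a fell, against 0.441% of all genes, and the list's median was -0.06. Ugt8a makes galactosylceramide, a lipid typical of myelin. It read 112, 168 and 108 in TG pools, against 583, 469 and 367 in WT pools. Here TG pool 3 was the lowest pool, and Ugt8a fell by 1.88 ± 0.30 (adjusted p = 0.00578). Sptlc2 and Degs1, of ceramide synthesis, had changes of -0.69 and -0.43 without passing (adjusted p = 0.161 and 0.14). None of 16 tested genes of sterol regulation, uptake and export passed, against 0.441% of all genes that fell and 0.0909% that rose. The median of these 16 was -0.12. Among them Srebf1, which encodes the regulator of fatty acid synthesis, read 433, 459 and 364 in TG pools and 392, 483 and 498 in WT pools, and the groups overlapped. Npc1 and Npc2, which move cholesterol out of lysosomes, had changes of -0.44 and -0.46. Srebf2 and Insig1 were not analysed here.

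Myelin protein genes mostly had lower indices in TG pools. None of the 11 tested of 24 passed, against 0.441% of all genes that fell and 0.0909% that rose. The list's median change was -0.40 log2 units, and in 5 of 11 every TG pool was below every WT pool, against 5.69% of all genes. Pmp22 is counted among the 11 and among those 5, although its change was only -0.10. None of the 11 had every TG pool above every WT pool, against 6.67% of all genes. Mal, a lipid-raft protein of myelin, read 1114, 1059 and 1165 in TG pools, against 2461, 1918 and 2338 in WT pools. The groups were well apart, with a change of -1.0 ± 0.24 (adjusted p = 0.0866). Mbp read 4295, 3926 and 4729 in TG pools and 5531, 5950.3 and 5545 in WT pools by its bright probe set, a change of -0.40 ± 0.12 that did not pass (adjusted p = 0.223), and its dim probe set had a change of -0.14.

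Mag, which encodes a protein of the inner myelin surface, read 308, 259.9 and 499 in TG pools and 592, 565 and 646 in WT pools on the probe set with a change of -0.81 ± 0.32 (adjusted p = 0.566), and its second probe set had a change of -0.01. Cd9, a tetraspanin, read 2552, 2556 and 3997 in TG pools and 3958, 4912 and 5280.5 in WT pools, so that TG pool 3 lay inside the WT range, with a change of -0.66 (adjusted p = 0.195). Without TG pool 3, Cd9 fell by 0.87 (limma, adjusted p = 0.022), but it did not pass when any other pool was left out (adjusted p up to 0.696). Sirt2 had a change of -0.72, Gjb1, the gap junction protein of the sheath, one of -0.46, Cldn5 of -0.37, Cdh1 of -0.18, and Mpzl2 of 0.02. Mobp had changes of 0.14, -0.20 and -0.23 on its 3 tested probe sets. Prx was not analysed here. The summed index of the list, with the bright Pmp22 probe set included, was 17021, 16272 and 19730 in TG pools, against 21633, 23977 and 23748 in WT pools.

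**Figure D2:**
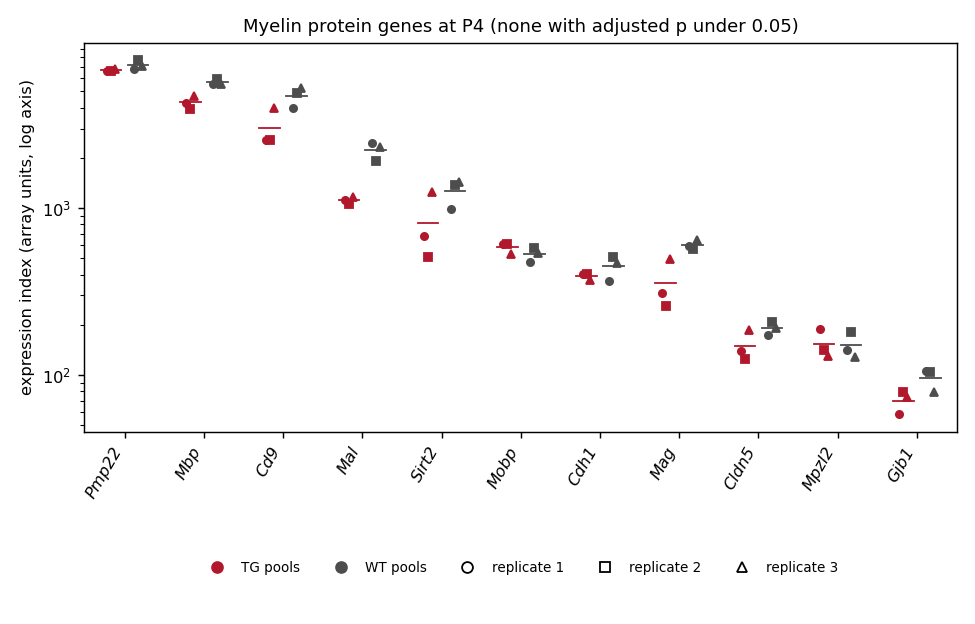
Expression index in each P4 pool (points, log axis) for the tested myelin protein genes, Pmp22 among them, TG pools left of WT pools for each gene and a horizontal line at each group's mean. Pmp22 is nearly level between the groups, while all TG pools of Mal and of the bright Mbp probe set lie below all WT pools.

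No regulator of Schwann cell myelination passed the test. Egr2, the transcription factor that drives the myelin programme, read 3487, 3174 and 2061 in TG pools and 3571, 2838 and 3567 in WT pools, with overlapping pools and a change of -0.22 ± 0.18 (adjusted p = 0.987). Sox10, which specifies the lineage, read 1381, 1404 and 1709 in TG pools and 964, 826 and 962 in WT pools by its bright probe set. Its TG pools were all higher, with a change of 0.70 ± 0.21 that did not pass (adjusted p = 0.24). Of 18 promyelinating transcription regulators none passed, against 0.441% of all genes that fell and 0.0909% that rose, and their median was 0.08. Egr1, an immediate early factor, read 268, 219 and 224 in TG pools and 129, 133 and 143 in WT pools, a change of 0.81 that did not pass (adjusted p = 0.0769).

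One gene tied to human hereditary neuropathy fell. Ndrg1, an abundant Schwann cell protein, read 3432, 3268 and 2911 in TG pools, against 5758, 4205 and 5659.9 in WT pools. The groups did not overlap, and Ndrg1 fell by 0.69 ± 0.12 on this probe set (adjusted p = 0.0128) and had a change of -0.64 on another (adjusted p = 0.106). It was the only one of 22 tested neuropathy genes to pass, against 0.441% of all genes that fell, and the list's median was -0.07.

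Several genes outside the lipid lists fell by more than 1 log2 unit. Gdf5, a secreted ligand of the BMP family, read 12.8, 44.2 and 98.4 in TG pools, against 654, 408 and 264 in WT pools. TG pools 1 and 2 were under the floor, and Gdf5 fell by 2.63 ± 0.39 log2 units (adjusted p = 0.00302), a lower estimate of the difference. It was the only one of 32 tested genes of BMP and TGF-beta signalling to pass, against 0.441% of all genes that fell, and that list's median was 0.00. Fgf1, a fibroblast growth factor without a classical secretion signal, read 104, 89.4 and 199 in TG pools and 424, 450.1 and 511 in WT pools and fell by 1.91 ± 0.37 (adjusted p = 0.0204). Ogn, the matrix proteoglycan osteoglycin, read 1019, 857 and 1696 in TG pools and 4055, 3325 and 2992 in WT pools and fell by 1.59 ± 0.27 on this probe set (adjusted p = 0.00699) and by 1.71 on another. Il16, a cytokine precursor, fell by 1.27 (adjusted p = 0.0347).

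Mme, the peptidase neprilysin, read 44.9, 49.1 and 66.1 in TG pools, against 222, 207 and 199 in WT pools. Its groups were tight and far apart, with TG pools 1 and 2 under the floor, and Mme fell by 1.84 ± 0.21 (adjusted p = 0.000462). Kcnk1, a 2-pore potassium channel, read 374, 328 and 446 in TG pools and 1287, 947 and 1135 in WT pools and fell by 1.55 ± 0.21 (adjusted p = 0.00119). Slc6a15, a transporter of neutral amino acids, read 52.4, 56.6 and 54.9 in TG pools and 193, 125 and 203 in WT pools and fell by 1.62 ± 0.22 (adjusted p = 0.00119), its TG pools being at or near the floor. Slco3a1, an organic anion transporter, fell by 1.34 and Ank, which exports pyrophosphate, by 0.75. Cd24a, a surface glycoprotein, fell by 0.89, with 1354, 1553 and 1338 in TG pools and 3086, 2497 and 2346 in WT pools.

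Fut8, which adds the core fucose of N-glycans, read 1013, 1004 and 845 in TG pools, against 2405, 1973 and 3014 in WT pools. TG pool 3 was the lowest of the 6, and Fut8 fell by 1.35 ± 0.17 (adjusted p = 0.000639). St6gal1, a sialyltransferase, read 2215, 2113 and 1943 in TG pools and 3439, 3100.3 and 3853 in WT pools and fell by 0.72 ± 0.12 (adjusted p = 0.00699) on one probe set, and had a change of -0.25 on a dimmer one.

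Cdkn1a, the cell cycle inhibitor p21, read 675, 556 and 635 in TG pools, against 2274, 1965 and 1699 in WT pools on one probe set. The 2 groups were far apart there, and it fell by 1.66 ± 0.29 (adjusted p = 0.0091). Its second probe set read 731, 725 and 1039.5 in TG pools and 1055, 934 and 1222 in WT pools, with a change of -0.38 that did not pass (adjusted p = 0.777). Utrn, the dystrophin relative that anchors the outer Schwann cell membrane to the basal lamina, fell by 1.54 ± 0.31 on one probe set (adjusted p = 0.0244) and had a change of 0.23 on the other. Tiparp, an ADP-ribosyltransferase, fell by 1.39 ± 0.23 (adjusted p = 0.00699), with 249, 190.2 and 178 in TG pools and 539, 474 and 597 in WT pools. Sncg, gamma-synuclein, fell by 1.36 and Clvs1, clavesin, by 1.50. The other named genes that fell were Sowahc, Tlcd4, Cpeb2, Cnga2 (on 1 of its 2 probe sets), Tg (thyroglobulin), Nacc2, Rnf13 and Mea1, by 0.63 to 1.57 log2 units.

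The named genes that rose numbered 8. None of the 8 passed in all 6 fits that each left out 1 pool. Wfdc18 passed in 4, Ednrb, Ptprz1, Tbxas1, Nip7 and Ube2t in 2 each, Pkp2 in 1 and Ddit4 in 0. Ednrb, the endothelin receptor B, which is expressed by immature Schwann cells, read 622, 512 and 442 in TG pools, against 259, 114 and 164 in WT pools. Every TG pool was above every WT pool, and Ednrb rose by 1.62 ± 0.31 log2 units (adjusted p = 0.0178). Ptprz1, a receptor phosphatase of glial precursors, read 206, 189 and 119.6 in TG pools and 104, 60.4 and 89.6 in WT pools and rose by 1.02 ± 0.21 on one probe set (adjusted p = 0.0307). Its 2 other probe sets had changes of 0.80 and 0.02 without passing. Of 33 tested genes of immature, non-myelinating and injured Schwann cells, only Ednrb passed by the brightest probe set, against 0.0909% of all genes that rose. Of the 33, 26 had changes above 0, against 51.3% of all genes, with a median of 0.18.

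Pkp2, the desmosomal protein plakophilin 2, read 157, 125 and 109 in TG pools, against 47.2, 47.3 and 50.7 in WT pools. All WT pools were under the floor, so that its rise of 1.24 ± 0.23 (adjusted p = 0.0166) is a lower estimate of the difference. Its second probe set was under the floor in all 6 pools. Wfdc18, a secreted protein with a whey acidic protein domain, read 255, 257 and 162 in TG pools and 97.6, 96.6 and 100.1 in WT pools and rose by 1.17 ± 0.20 (adjusted p = 0.00901). Tbxas1, thromboxane synthase, read 761, 709 and 775 in TG pools and 339, 402 and 306 in WT pools. Its groups were far apart, and it rose by 1.11 ± 0.21 (adjusted p = 0.017).

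Ddit4, an inhibitor of mTOR signalling induced by stress, rose by 0.95 ± 0.20 (adjusted p = 0.0307), with 1291, 975 and 1159.6 in TG pools and 653, 496 and 618 in WT pools. It was the only one of 26 tested genes of endoplasmic reticulum stress and the amino acid response to pass, against 0.0909% of all genes that rose. That list's median was 0.04. The call for Ddit4 was lost whichever of the 6 pools was left out, with changes of 0.84 to 1.06 (adjusted p between 0.0587 and 0.224). Atf3, a stress-induced transcription factor, read 350.4, 328 and 305 in TG pools and 164, 156 and 217 in WT pools and just missed, with a change of 0.89 ± 0.20 (adjusted p = 0.0517), while its 2 other probe sets had changes of 0.11 and 0.22. Nip7, of ribosome biogenesis, rose by 0.92 ± 0.17 (adjusted p = 0.0166). Ube2t, a ubiquitin-conjugating enzyme of DNA repair, rose by 0.86 ± 0.17 (adjusted p = 0.0204).

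Cell cycle genes mostly had higher indices in TG pools. None passed, against 0.441% of all genes that fell and 0.0909% that rose. Of 55 tested, 50 had changes above 0, against 51.3% of all genes, with a median change of 0.39 log2 units. In 14 of the 55 every TG pool was above every WT pool, against 6.67% of all genes. Ttk, a mitotic checkpoint kinase, read 247, 259 and 201 in TG pools and 127, 103 and 162 in WT pools, a change of 0.87 (adjusted p = 0.206). Ccnd1, cyclin D1, read 3174, 3172 and 2369.8 in TG pools and 2161, 1279.7 and 1937 in WT pools by its bright probe set, a change of 0.72 (adjusted p = 0.198). The list's median against the WT mean was 0.48, 0.62 and 0.00 in TG pools 1, 2 and 3, and 0.11, -0.20 and 0.10 in WT pools 1, 2 and 3. The median over the list was thus above that of every WT pool in TG pools 1 and 2 and lay within the WT range in TG pool 3, while Ttk and Ccnd1 were above every WT pool in TG pool 3 too.

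**Figure D3:**
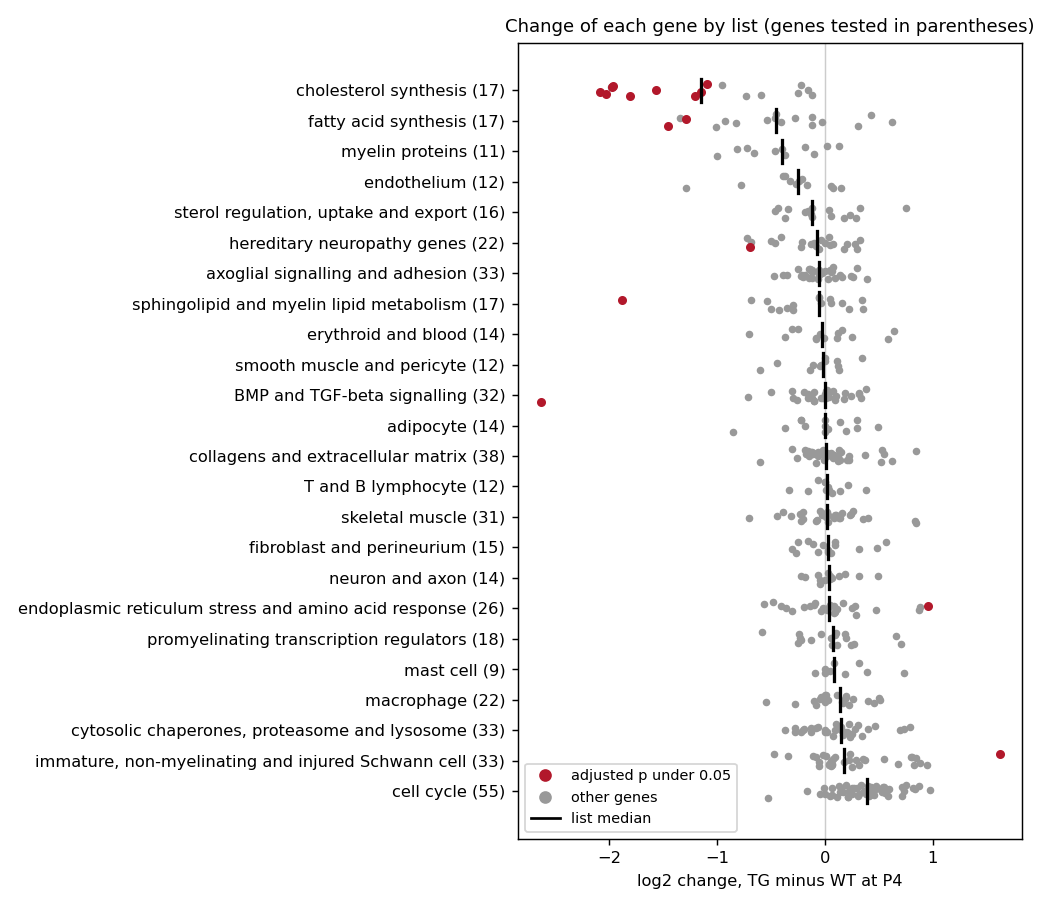
TG minus WT log2 change at P4 of every tested gene (points) in each of 24 lists, by the brightest probe set, with the median of each list as a bar and genes that passed in red. Cholesterol synthesis sits lowest with a median of -1.15, and cell cycle highest with 0.39.

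With all pools in the fit, no gene of the lists for other cell types passed the test. Of all genes, 0.441% fell and 0.0909% rose. Macrophage genes had a median change of 0.14 over 22 genes and a summed index of 7899.8, 7878 and 8122 in TG pools, against 7041, 6775 and 7089 in WT pools. Endothelial genes had a median of -0.25 over 12 of 16 genes, and Vwf, the von Willebrand factor, read 161, 134 and 308 in TG pools and 357, 504 and 539 in WT pools on its bright probe set (change -1.29, adjusted p = 0.112). Without TG pool 3, Vwf fell by 1.64 (limma, adjusted p = 0.0182), but it did not pass when any other pool was left out (adjusted p up to 0.463). Its dimmer probe set had a change of 0.06 with all pools. In 3 of the 12 endothelial genes every TG pool was below every WT pool, against 5.69% of all genes: Vwf, the receptor gene Kdr (change -0.77) and Sox17 (change -0.38). The endothelial summed index was 2837 to 3803 in TG pools and 3084 to 4259.5 in WT pools. Skeletal muscle genes varied strongly between pools of both groups, with a summed index of 8683, 23737 and 15635 in TG pools and 12112, 27766 and 9418 in WT pools. Their list medians in single pools ran from -0.69 to 0.81 in TG pools and from -0.68 to 0.95 in WT pools, and the highest were TG pool 2 and WT pool 2. The lists of lymphocytes, mast cells, smooth muscle, fibroblasts, adipocytes, blood and neurons had medians between -0.02 and 0.09. Their summed indices overlapped between TG and WT pools in all but the neuronal list, which was 4339.9 to 4540.1 in TG pools and 3946 to 4329 in WT pools. The part of these cells in the results was not tested.

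**Figure D4:**
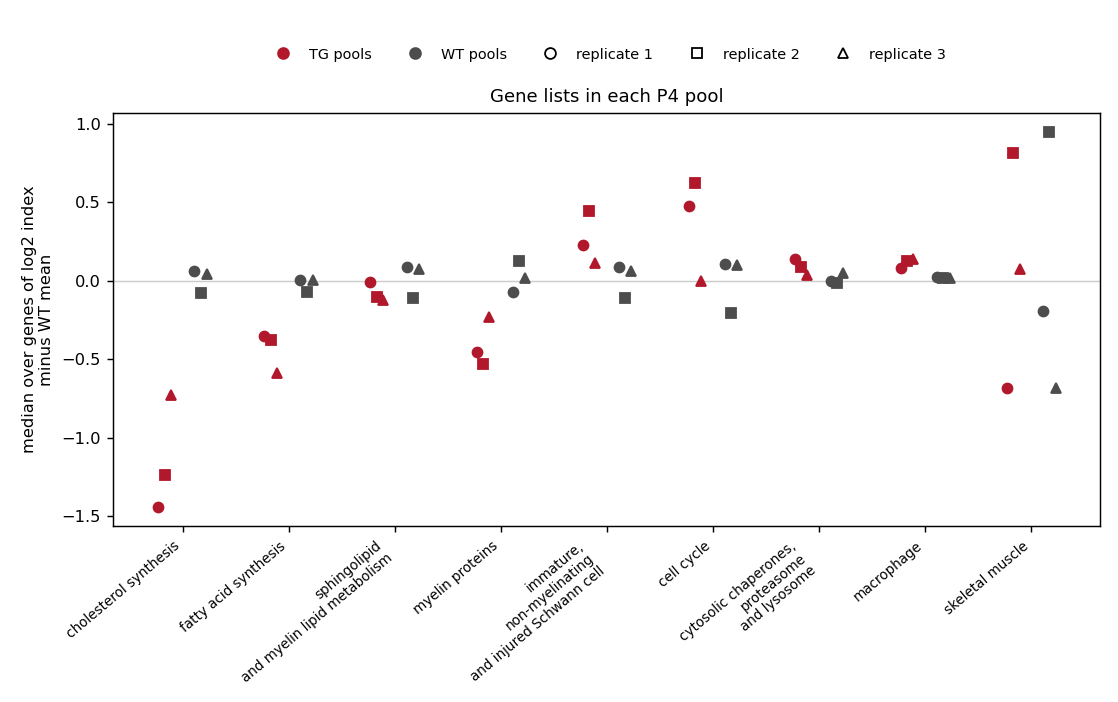
Median over the genes of a list of the log2 index minus the WT mean, for each P4 pool, TG pools left of WT pools in each list. In cholesterol synthesis all 3 TG pools lie below 0, at -1.44 to -0.73, whereas the skeletal muscle medians of both groups spread widely.

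The lists of axoglial signalling (33 genes, median -0.06), collagens and extracellular matrix (38 genes, 0.01), and cytosolic chaperones, proteasome and lysosome (33 genes, 0.15) held no gene that passed, against 0.441% of all genes that fell and 0.0909% that rose.

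The TG nerve was next set against the other Pmp22 genotypes at P4 by testing the difference between them. TG and KO nerves differed in 46 probe sets (0.418%), 17 (0.155%) higher and 29 (0.264%) lower in TG nerves. These tests use the same TG arrays as the comparison with WT, and without KO pool 3 the count was 78, against 19 without TG pool 1 or KO pool 2. TG pools 1 and 2 and KO pools 1 and 2 were scanned on the same day, whereas no TG and WT pool at P4 shared a scan day. Idi1 read 709, 866 and 1238 in TG pools, against 1886, 2399 and 1996 in KO pools, a TG minus KO change of -1.19 (adjusted p = 0.00432). Hmgcs1, with 723, 801 and 1846 in TG pools and 2159, 3078 and 2319 in KO pools, fell by 1.28 (adjusted p = 0.0331). Those were the 2 genes of 17 in the cholesterol list that differed between TG and KO nerves by their brightest probe set, against 0.156% of all genes that were lower.

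Outside the sterol route, the lipid enzymes Scd1 and Ugt8a were lower in TG than in KO nerves, by -0.66 and -1.56 (adjusted p = 0.0402 and 0.029). Fut8 read 1013, 1004 and 845 in TG pools and 1842, 2305 and 2032 in KO pools, a difference of -1.11 (adjusted p = 0.00432). Ndrg1, Tiparp and Utrn were lower too, by -0.70, -1.23 and -1.56. Ednrb read 622, 512 and 442 in TG pools, against 223, 161 and 85.2 in KO pools, and was higher in TG nerves by 1.84 ± 0.31 (adjusted p = 0.0091). Wfdc18 and Pkp2 were also higher in TG than in KO nerves, by 1.30 and 1.15 (adjusted p = 0.00537 and 0.0331).

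TG and TR nerves differed in 16 probe sets (0.146%), or 81 without TR pool 3 and 10 without TG pool 1 or 2, and no gene of cholesterol synthesis was among the 16. The largest difference was in the stress-induced chaperone Hspa1a, which read 97.5, 83.5 and 80.6 in TG pools, against 1933, 1242 and 1990.1 in TR pools, a TG minus TR change of -4.28 (adjusted p = 1.60e-08). Its WT pools read 71.0, 73.9 and 92.0. Clvs1 read 64.8, 94.2 and 97.9 in TG pools and 739, 597 and 758 in TR pools, a difference of -3.04 (limma, adjusted p = 6.30e-05). WT pools read 204, 214 and 308 for Clvs1, and its changes against WT were -1.50 in TG and 1.54 in TR nerves. Fut8 and Pkp2, which differed from WT and from KO, also differed from TR, Fut8 by -1.06 (adjusted p = 0.00742) and Pkp2 by 1.24 (adjusted p = 0.0439). Ednrb did not pass against TR, with a change of 1.52 (adjusted p = 0.0734).

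Set side by side against the same 3 WT pools, which all 3 comparisons share, the median change of the cholesterol list was -1.15 in TG, -0.64 in KO and -1.06 in TR nerves, with 9, 1 and 10 of 17 genes falling. Of all genes, 0.441%, 0.182% and 0.338% fell in TG, KO and TR nerves. Idi1 had changes of -2.03, -0.84 and -1.27 in TG, KO and TR nerves, and Cyp51 of -2.08, -0.93 and -1.34. Ugt8a had changes of -1.88, -0.31 and -0.65, and Ednrb of 1.62, -0.22 and 0.10. Other genes moved nearly as much in TR as in TG nerves. Hmgcs1 had changes of -1.81, -0.53 and -1.68, and Gdf5 of -2.63, -0.95 and -2.24. Elovl6 had changes of -1.29, -0.81 and -1.17 on its brighter probe set and of -1.56, -1.31 and -1.62 on the other. Some cholesterol genes moved more in another mutant than in TG nerves. Hsd17b7 had changes of -1.97, -2.31 and -0.95, Ebp of -0.59, -0.49 and -1.45, and Fdft1 of -0.96, -0.66 and -1.06. The myelin protein median was -0.40, -0.39 and -0.31, and the cell cycle median was 0.39, 0.57 and 0.29, largest in KO nerves.

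**Figure D5:**
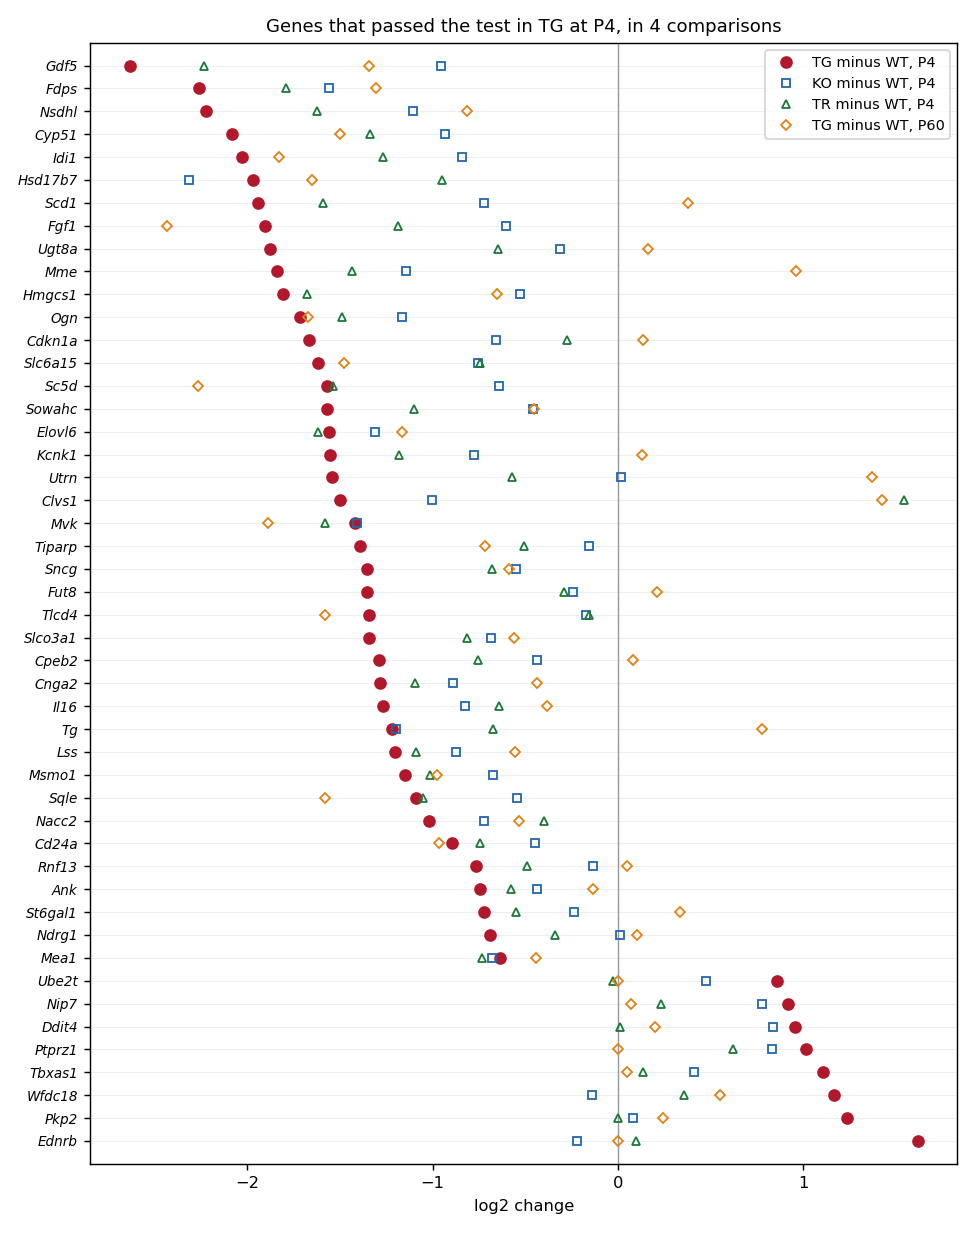
Log2 change against WT of each gene that passed in TG nerves at P4 (filled circles), with the same gene in KO (squares) and TR (triangles) nerves at P4 and in TG nerves at P60 (diamonds), by the probe set with the largest P4 TG change. Scd1, Ugt8a, Fut8, Utrn and Mme are below 0 in TG nerves at P4 and above 0 at P60.

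The TG effect at P60 was compared with that at P4 as an interaction of genotype and age, with 2 TG and 3 WT pools at P60. It differed in 144 probe sets (1.31%), and in 50 without TG pool 2 of P60. In the cholesterol list 8 of 17 genes fell at P60, against 2.54% of all genes, with a median change of -0.98 at P60 and -1.15 at P4, and no member differed between the ages. Idi1 read 582 and 833 in TG pools and 2382, 2459.9 and 2574 in WT pools at P60, and had a change of -1.83 at P60 and of -2.03 at P4. The fatty acid list had a median of 0.02 at P60 and -0.46 at P4.

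Scd1 differed between the ages. At P60 it read 6176 and 6538 in TG pools and 5699.9, 4394 and 6452 in WT pools, overlapping groups with a change of 0.22, against -1.46 at P4 (difference 1.68 ± 0.20, adjusted p = 0.000205). Ugt8a had a change of 0.16 at P60 and of -1.88 at P4 (difference 2.04 ± 0.45, adjusted p = 0.0347). Fut8 had a change of 0.21 at P60 and of -1.35 at P4 (difference 1.56 ± 0.25, adjusted p = 0.00252). Mme rose by 0.96 at P60 and fell by 1.84 at P4, and the same Utrn probe set rose by 1.37 at P60 and fell by 1.54 at P4. Pou3f1, the transcription factor of the promyelinating Schwann cell also called Oct6, read 1263 and 2153 in TG pools and 21.8, 129 and 37.6 in WT pools at P60. At P4 it read 1406, 1146 and 998 in TG pools and 575, 635 and 1116 in WT pools, overlapping groups, and its change was 4.50 at P60 and 0.66 at P4 (difference 3.84 ± 0.57, adjusted p = 0.00137). WT pools 1 and 3 of P60 were under the floor, so that the P60 change and the difference are lower estimates.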

How the data were processed

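RNA from pooled sciatic nerves was amplified by a pair of rounds of in vitro transcription and hybridised to Affymetrix mouse arrays, per the labels' protocols. The values are an intensity scale: model-based expression indices that the authors computed with dChip after smoothing-spline normalization of MAS 5.0 scans, and deposited in 1 table. The dChip version is not given in the sources used here. Amplification from the 3′ end can compress or distort differences.

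Values under the 20th percentile (54.7) were raised to it and log2 transformed. Probe sets above it on at least 2 of 21 arrays (10994 of 12422) were fitted with limma 3.58.1 in R 4.3.3, with 8 group means, 13 residual degrees of freedom, a trended prior and Benjamini-Hochberg adjustment. "Fell" and "rose" mark an adjusted p under 0.05. The number of arrays limits the precision.

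The platform annotation gave the symbols: 10833 probe sets have 1 symbol, 396 several and 1193 none, and 10817 matched RefSeq by gene ID. Probe sets whose names end in _f_at, _s_at, _g_at, _i_at or _r_at may share or lose probes and can read related transcripts. The brightest probe set stands for a gene in lists. Named genes were every Pmp22, cholesterol and myelin protein probe set, those that passed in TG against WT (at least the 15 largest falls and all rises), passing members and up to 5 others of each other list, and up to 10 in each contrast that tests a difference. Members and gene lists were chosen with earlier results of these data known.

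Replicate numbers were checked for pairing: deviations of same-numbered TG and WT pools correlated at 0.228, -0.264 and 0.107, and those of other pairs at -0.425 to 0.388. Deviations within a group of 3 pools sum to 0, so this check cannot exclude pairing. The main fit treated the pools as unpaired. Alternatives covered floor, filter, normalization, arrays fitted, prior, replicate number and scan day as blocks, and each pool left out. The fit was also run on simulated data with independent errors, without the floor, the filter or scan-day effects. That run checks the code and does not test the calls made here.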

Additional observations from a re-analysis of the deposited data

Results flagged for a closer look

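The results below are genes whose TG effect at P60 differed from that at P4 by the interaction of genotype and age in limma. Each difference is the TG minus WT log2 change at P60 less that at P4, from 2 TG and 3 WT pools at P60 and 3 of each at P4.

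Among genes that had fallen in TG nerves at P4, the difference was 2.93 for Clvs1 (1.43 at P60 and -1.50 at P4), 2.91 for Utrn on one probe set and 2.81 for Mme. It was 2.32 and 1.68 for the 2 called probe sets of Scd1, 2.04 for Ugt8a and 2.00 for Tg, the thyroglobulin gene. It was 1.69 for Kcnk1, 1.56 for Fut8, 1.06 for St6gal1 and 0.79 for Ndrg1, whose adjusted p of 0.0455 was the closest to the threshold.

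The other genes did not pass at P4. Fbp1, fructose-bisphosphatase 1, differed by 4.33 ± 0.30, with a change of 4.66 at P60 and 0.33 at P4 (adjusted p = 4.13e-07). Its 3 WT pools of P60 were under the floor, as were 1 TG and 2 WT pools of P4, so that these sizes depend on the floor. Fbp1 read 1094 and 1741 in TG pools at P60. Tyrp1 differed by 3.81, but it was under the floor in all P4 TG and WT pools and in the 3 WT pools of P60, and only its P60 TG pools, at 765 and 774, were measured above it. Pou3f1 differed by 3.84, Csrp2 by 3.62 and Sowaha by 3.07. In the opposite direction, Cd99 differed by -2.83 (-1.90 at P60 and 0.94 at P4), Serpind1 by -2.93, with 2 TG pools of P4 under the floor, and Lox, lysyl oxidase, by -3.15 (-3.23 at P60 and -0.08 at P4).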

How the results depend on the processing

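No result that passed changed sign under the alternatives run. The 61 probe sets that differed between TG and WT became 30 in a fit of the 12 P4 arrays, 0 in a fit of the 2 groups alone and 5 once scan day was a fixed block, and ranged from 25 to 74 with 1 pool left out. For TG against KO, 46 became 22 with no filter, 29 in the 12 P4 arrays, 7 in the groups alone, 77 with scan day fixed and 182 with it as a random block, and ranged from 19 to 78. For TG against TR, 16 became 34 after quantile normalization, 2 in the groups alone and 3 when scan day was fixed, and ranged from 10 to 81. The 144 that differed between ages became 81 with scan day as a random block and ranged from 50 to 181, and a fixed scan-day block could not be fitted there. The 9 cholesterol genes that fell became 3 in the 12 P4 arrays and 0 in the groups alone or when scan day was fixed, although 12 and 8 of 17 had an unadjusted p under 0.05 there, and ranged from 5 to 11. Their median ranged from -1.36 to -1.03. The myelin protein median of -0.40 became -0.28 with a pseudocount of 50 and -0.61 with scan day fixed. With the replicate block, 65 probe sets differed between TG and WT, 53 between TG and KO, 30 between TG and TR and 140 between ages, and 10 cholesterol genes fell. Why these counts moved was not tested, beyond the fewer arrays or residual degrees of freedom of the smaller fits. Probe sets near the floor of 54.7 give only lower estimates of a difference.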

Other observations

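Some of the largest differences between TG nerves and the other Pmp22 mutants at P4 were in genes that did not pass in TG against WT. Snhg6, a small nucleolar RNA host gene, read 828, 932 and 426 in TG pools, against 58.5, 47.5 and 51.3 in KO pools on its bright probe set, a difference of 3.62 log2 units (limma, adjusted p = 2.10e-05), and 662, 490.2 and 402 in WT pools. Prdx2, a peroxiredoxin, read 1230.2, 1146 and 924 in TG pools and 323, 453 and 226 in KO pools on one probe set, a difference of 1.76 (adjusted p = 0.00306). Its brighter probe set differed by -0.08. Meg3, an imprinted non-coding RNA, read 70.2, 65.4 and 86.1 in TG pools, against 354, 395 and 236 in KO pools and 243, 381 and 497 in TR pools on one probe set, differences of -2.13 and -2.29 (adjusted p = 0.0402 and 0.0451). WT pool 2 read 81.2 on that probe set and WT pools 1 and 3 read 385 and 326, and the brighter Meg3 probe set differed by 0.21 and 0.14.

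Against TR nerves, TG nerves were lower in further genes, which did not pass in TG against WT either. The chaperone gene Hspa1b read 477, 487 and 276 in TG pools and 4382, 4338 and 4389 in TR pools, a difference of -3.45 (adjusted p = 1.49e-07). The chemokine Cxcl10 differed by -1.38, asparagine synthetase (Asns) by -1.05 and -0.64 on its 2 probe sets, and the autophagy receptor Sqstm1 by -1.0, with TG and TR pools apart in each. Against WT, Cxcl10 had changes of 1.63 in TR and 0.25 in TG nerves. The Asns probe set that differed by -1.05 had changes of 1.14 in TR and 0.08 in TG nerves.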
